A study of Mus musculus with 5 samples.

Results

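Cassette exons that can be spliced in with either of 2 alternative borders were followed in the left ventricle of control and diabetic mice. A cassette exon is an internal exon that a transcript either holds or skips. An exon was taken when its start or its end, but not both, was also a border of another cassette exon on the same chromosome and strand, with both exons present in all 6 of the authors' tables. The rule took 803 of the 6331 exons, which form 446 pairs in 364 genes. The rule used coordinates and presence in the 6 tables, with no Psi value or read count. It was set with earlier results of these data known. Of the 803 exons, 724 belong to 1 pair and 79 to more than 1, up to 3.

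The mice were of the C57BL/6 strain and 12 weeks old. From 8 weeks of age they were injected into the abdomen on 5 days in a row. Control mice (2 samples) received citrate buffer, and STZ mice (3 samples) received 70 mg/kg streptozotocin in that buffer, a drug that is toxic to the pancreatic beta cells, which make insulin. All samples share the strain, the tissue and the buffer, no blood glucose value is among the sources used here, and the drug reaches other organs as well as the pancreas. The labels do not say that each sample is a separate animal, so the p-values below measure the spread between these samples only.

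None of the 5 library codes in the tables equals a sample title. The 2 codes on one side of every table were taken as Control A and Control B, and the 3 on the other side as STZ A, STZ B and STZ C, from the group sizes alone. The codes also come in 2 naming series that split as the groups do, so a difference between series and a difference between treatments cannot be told apart. The member events held 2859685 to 4154699 reads per library, of which 717170 to 1011157 tell inclusion from skipping. The median tested member had 148.5 to 262 such reads per library. Of 12 heart muscle markers, 5 had an event, and their summed level was 128384 to 129776 RPM (reads scaled to an equal total of event reads in each library) in Control and 60696 to 67202 in STZ. Most of that gap was Pln, at 102117 to 102404 against 29039 to 38768, while Ttn was at 18734 to 22314 in all 5 libraries and Tnnt2 at 5978 to 6074 against 8187 to 9098. The endothelial marker Pecam1 stood at 1726 to 1931 in Control and 4415 to 7232 in STZ, leukocyte markers were at 121 or less and the fibroblast marker Postn at 17 or less. The 2 of 4 smooth muscle markers with an event summed to 421 to 425 RPM in Control and 421 to 541 in STZ, with Myh11 at 58.3 and 75.2 in Control and 178 to 302 in STZ, and Smtn at 349 to 363 and 206 to 303. The part of these differences in the exon changes below was not tested, and in these bulk samples a changed mix of cells and changed splicing within a cell cannot be told apart.

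At the upstream end of an exon the spliceosome cuts at the 3′ splice site, or acceptor, where the intron ends in AG. At the downstream end it cuts at the 5′ splice site, or donor, where the next intron opens with GT. When 2 usable sites lie close together, the same exon appears in a longer and a shorter form. Acceptors 3 nt apart, known as NAGNAG sites, add or remove a single amino acid, and other distances can shift the reading frame. Read with the strand, 264 pairs shared their 5′ splice site and so differed in the acceptor, and 182 shared their 3′ splice site and differed in the donor.

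For 255 pairs both exons were matched to GENCODE M21 transcripts (GRCm38), and the part they share had the same sequence in all 255. The exons below are shown because they carry the results that follow: the 3-nt acceptor pairs, and pairs in which both exons changed with STZ or in which the longer exon changed more. Capitals mark the stretch that is in the longer exon only, and lower case marks the first or last 16 nt of the part both exons hold. In the first group the stretch lies at the upstream end, and in Ptbp1 and R3hdm2 at the downstream end.
Psap, 96 and 93 nt: CAGaatctggtccaggccc
Dnajc4, 165 and 162 nt: CAGctcctgggaacccccc
Uap1, 51 and 48 nt: CAGtgctacaaatggaaag
Med16, 166 and 163 nt: GAGccagggaccgtgctgg
Pdrg1, 75 and 72 nt: AAGatgtgatggtttgctt
Max, 27 and 23 nt: GAAGagcaaccgaggtttca
Zyx, 93 and 88 nt: CCCAGggagaaagtgtgcagt
Immt, 96 and 90 nt: AGGAAGcattctcatcttctgt
Hnrnph1, 139 and 92 nt: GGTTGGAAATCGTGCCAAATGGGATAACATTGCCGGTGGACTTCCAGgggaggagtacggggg
Ptbp1, 78 and 74 nt: tgccatccctcaggccGCAG
R3hdm2, 102 and 63 nt: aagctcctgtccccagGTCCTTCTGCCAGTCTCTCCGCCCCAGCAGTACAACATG

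The letters at the inner border were those of a splice site in nearly every pair that could be read. Read on the strand of the transcript only, the stretch ended in AG in 233 of the 233 acceptor pairs at least 2 nt apart. It opened with GT in 112 of the 122 donor pairs, and the Ptbp1 stretch is one of the 10 without it. In 5084 matched exons outside the pairs, AG ended 3 nt after the exon start in 5.33% and GT began 4 nt before the exon end in 1.50%. Among the 36 acceptor pairs 3 nt apart, the 3 letters were CAG in 26, TAG in 4, GAG in 3 and AAG in 3. Among 11 donor pairs 4 nt apart, GTAG occurred 4 times, GCAG and GTTA 2 times each, and GCTG, GTGG and GTGA once each. Both borders of a pair were already splice sites of annotated events, so these shares are a description and no test. A match of letters describes the exon and does not show that a site was used.

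**Figure D1:**
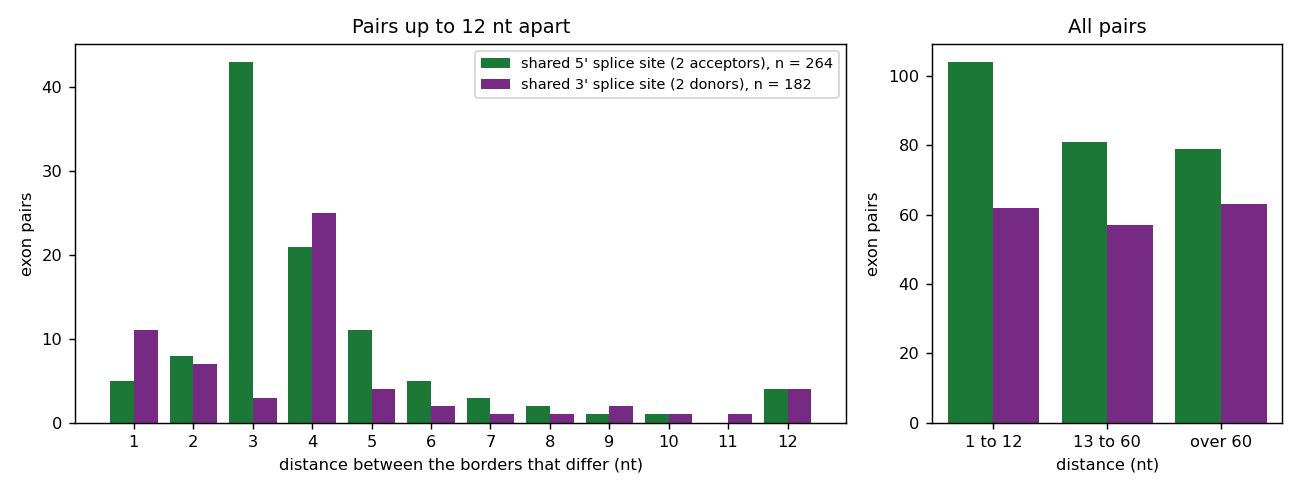
Number of exon pairs (y axis) by the distance in nt between the borders that differ (x axis), for pairs that share the 5′ splice site (green, 264) and pairs that share the 3′ splice site (purple, 182). The 3-nt peak holds 43 acceptor pairs and 3 donor pairs, and the 4-nt peak 21 acceptor and 25 donor pairs.

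Distances ran from 1 to 2790 nt, with a median of 22 nt between acceptors and 31.5 nt between donors. At 3 nt there were 43 acceptor pairs and 3 donor pairs, and at 4 nt 21 and 25, as the plot of distances shows. The distance was a multiple of 3 in 41.3% of acceptor pairs and in 28.0% of donor pairs. Among pairs whose longer exon is wholly coding, that was 57 of 106 acceptor pairs and 16 of 50 donor pairs. The flanking exons were the same in 424 pairs. In 280 pairs the reads that show skipping were the same in all 5 libraries, so the values of a pair are not independent of each other.

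The authors estimated inclusion as Psi, the fraction of transcripts that hold the exon, from 0 to 1, for each event on its own. The 2 values of a pair therefore need not add to 1. In Control the mean Psi was higher for the longer exon in 168 of the 367 pairs with enough reads, higher for the shorter exon in 167 and equal in 32. Inclusion-only reads, those that fit only the including isoform, gave a second view, over another set of pairs: 367 that did not differ in their flanking exons had at least 10 of them in 1 or the other exon in every library, and 338 of these were also among the pairs tested for Psi. They were more numerous for the longer exon in all 5 libraries in 231 of the 367 pairs and for the shorter exon in 96, where a longer exon also offers more positions for a read.

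Close pairs differed by kind in this count. Up to 12 nt apart, the longer exon had more inclusion-only reads in all 5 libraries in 64 of 89 acceptor pairs and the shorter exon in 14. Of 52 donor pairs at these distances, 21 had more for the longer exon and 27 for the shorter. The median of the read ratio, longer over shorter, was 1.10 over 37 acceptor pairs 3 nt apart, 1.32 over 17 acceptor pairs 4 nt apart, and 0.644 over 20 donor pairs 4 nt apart. At 4 nt the longer exon led in all libraries in 14 of 17 acceptor pairs and in 4 of 20 donor pairs. Donor pairs 1 nt apart went the other way, with the longer exon leading in 10 of 11 and a median ratio of 1.57. Among the donor pairs 4 nt apart whose letters could be read, the median was 0.91 over the 4 whose stretch starts with GT and 1.21 over the 3 that start with GC. In acceptor pairs 3 nt apart the longer exon led in 11 of 21 CAG pairs, with the shorter leading in 4, and in all 3 GAG and all 3 AAG pairs.

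**Figure D2:**
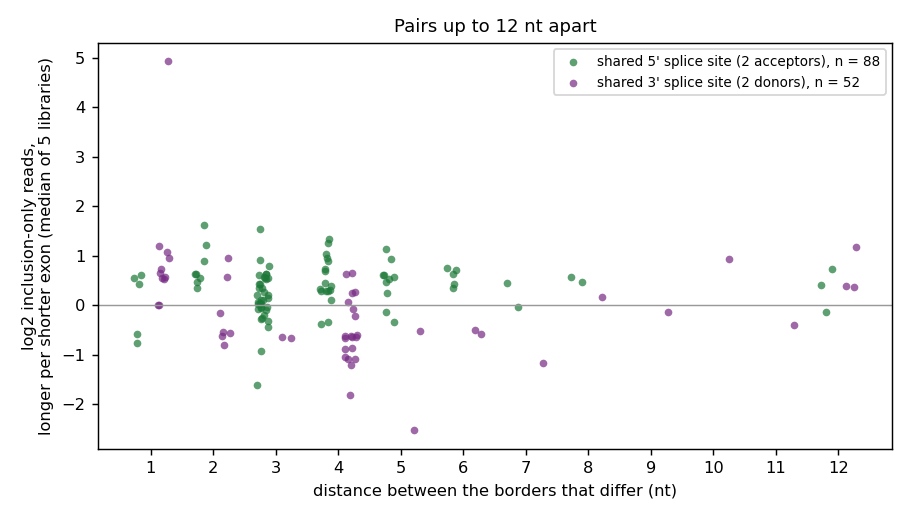
The log2 ratio of inclusion-only reads, longer over shorter exon (y axis, median of the 5 libraries), against the distance in nt (x axis) for pairs up to 12 nt apart, 1 point per pair, green for pairs of acceptors and purple for pairs of donors, 88 and 52 in number. Most green points lie above 0, and at 4 nt most purple points lie below it; the Psap pair of 9 and 6 nt, with 0 reads for the shorter exon, has no ratio and is left out.

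The pair of 9 and 6 nt in Psap, the precursor of the saposins that help break down sphingolipids, was chosen after its values were seen. The 9-nt exon (mm9 chr10:59760285-59760293) was supported by 633 and 826 inclusion-only reads in the Control libraries. In the STZ libraries these were 788, 478 and 392, and the 6-nt exon had 0 in all 5. Whether reads could be aligned across so short an exon was not tested, so 0 reads do not show that the form is absent. Skipping reads, the same for both, numbered 252 and 280 in Control and 223, 200 and 207 in STZ.

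STZ was compared with Control event by event with limma on the logit of Psi, and an exon is called changed at an adjusted p under 0.05. Of the 803 members, 690 had at least 10 informative reads in every library and were tested, and 113 were not. Among the 690, 106 exons of 77 genes changed, 31 with higher Psi in STZ and 75 with lower. That is 15.4%, against 15.0% of all 4769 events tested, so the share is near the background. Higher Psi was called in 4.49% of the members and 4.84% of all events, and lower Psi in 10.9% and 10.1%. The median change of Psi was -0.01 over the members and over all events. Psi of the 2 groups did not overlap in 44.5% of the members and in 42.9% of all events.

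Of the 106 changes, 82 were at least 0.10 in Psi, 27 up and 55 down, and 46 were at least 0.20. In 24 the change was below 0.10, and 24 rested on fewer than 10 skipping reads over the 5 libraries. Changes below 0.10 include those of Pdrg1 (72 nt), Snrpd3 (54 nt) and Snhg1 (81 nt), at -0.01, -0.015 and 0.02. None of them was called in a model of the reads, though they are among the exons that stayed called without each library in turn. By a stricter count from the authors' deposited tables, which asks each of the 6 comparisons for a difference of 0.20 or more in the same direction with a Bayes factor of 10 or more, 36 members passed (4.48%, against 3.22% of all events), 13 up and 23 down. Single libraries weighed on the count. It was 48 when Control A was left out and 47 for Control B. Leaving out an STZ library gave 72 (A), 55 (B) and 58 (C), and 25 of the 106 exons stayed called each time.

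**Figure D3:**
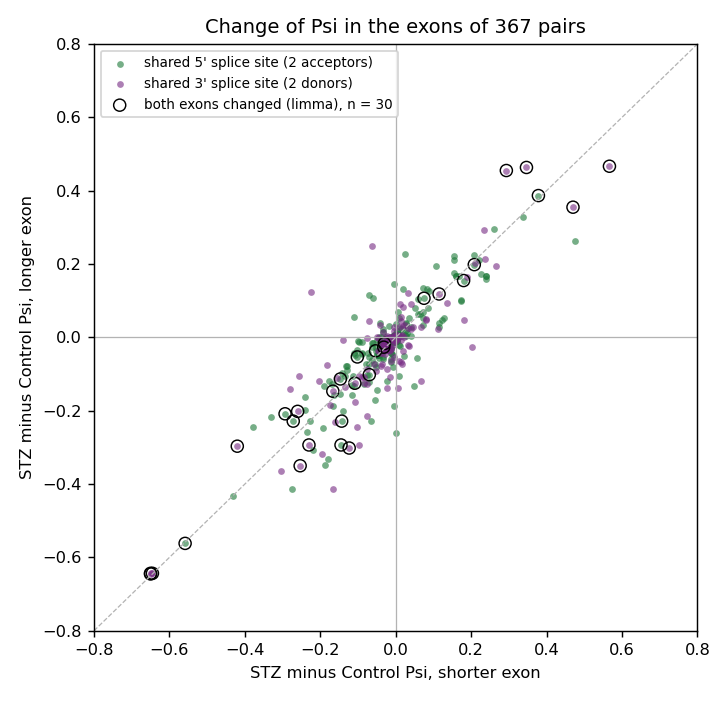
STZ minus Control Psi of the longer exon (y axis) against that of the shorter exon (x axis) for the 367 tested pairs, green for shared 5′ and purple for shared 3′ splice sites, with circles around the 30 pairs in which both exons changed. All 30 circled pairs lie in the lower left or the upper right, and the dashed line marks equal change.

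Both exons of a pair mostly moved together. Of 367 tested pairs, 81 had at least 1 changed exon and 30 had both changed. All 30 moved in the same direction, 9 up and 21 down, and no pair had changes of opposite direction. In 30 further pairs the longer exon alone was called, and in 21 the shorter alone. Over all pairs with a change other than 0 in both exons, called or not, 287 of 335 (85.7%) had the same sign, and 78.0% of those over 60 nt apart. The share was 84.8% for donor pairs and 86.3% for acceptor pairs. The median difference between the changes of the 2 exons was 0.0217 in Psi and reached 0.10 in 43 pairs. At least 1 exon was called in 22.2% of pairs with a distance that is a multiple of 3 and in 22.0% of the others. Since the exons of a pair share reads, the agreement is a description.

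The largest paired falls were in Morf4l2 and Hnrnph1. Morf4l2, a subunit of the NuA4 histone acetyltransferase complex, has 3 forms of an untranslated exon (mm9 chrX:133270085-133270161), of 77, 76 and 75 nt, with donors 1 nt apart. Psi of the 77-nt form was 0.95 and 0.97 in Control and 0.35, 0.28 and 0.32 in STZ. Psi of the 75-nt form was 0.81 and 0.85 in Control and 0.20, 0.16 and 0.18 in STZ. The groups lay far apart in all 3 forms, with falls of 0.643, 0.645 and 0.65 (adjusted p = 0.00614, 0.00348 and 0.00398), and all 3 stayed called without each library in turn. The 76-nt and 75-nt forms had the same read counts in every library.

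Hnrnph1 encodes a splicing factor that binds runs of G. Its exon (mm9 chr11:50194961-50195099) has acceptors 47 nt apart, and the 47 nt are the capitals above. The longer form was at 0.90 and 0.85 in Control and at 0.31, 0.29 and 0.34 in STZ. The shorter form was at 0.83 and 0.76 in Control and at 0.22, 0.24 and 0.25 in STZ. Both fell, by 0.562 and 0.558 (adjusted p = 0.00759 and 0.00727), and both calls held without each library. Inclusion-only reads of the longer form were 2.33 and 2.51 times those of the shorter in Control and 2.28, 2.01 and 2.24 times in STZ, and no difference between these ratios was called (adjusted p = 0.427).

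Both exons of the Eif4a2 and Azin1 pairs rose. Eif4a2, an RNA helicase of translation initiation, has an exon of 111 or 107 nt (mm9 chr16:23112424-23112534). The 111-nt form was at 0.09 in both Control libraries and at 0.59, 0.53 and 0.54 in STZ, and the 107-nt form at 0.06 in both and at 0.42, 0.39 and 0.41 (adjusted p = 0.00267 and 0.00105). Azin1, the antizyme inhibitor that keeps ornithine decarboxylase from being degraded, has an untranslated exon of 160 or 148 nt (mm9 chr15:38436942-38437101). The 160-nt form was at 0.03 and 0.02 in Control and at 0.42, 0.52 and 0.50 in STZ, and the 148-nt form at 0.01 in both and at 0.23, 0.36 and 0.32 (adjusted p = 0.0066 and 0.00705). In both genes every STZ library was above every Control library for either form, and the 4 calls held without each library.

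Immt, the mitofilin that organises mitochondrial cristae, has a coding exon of 96 or 90 nt (mm9 chr6:71803167-71803262). The longer form was at 0.37 and 0.45 in Control and at 0.77, 0.80 and 0.82 in STZ, and the shorter at 0.30 and 0.33 and at 0.63, 0.73 and 0.72. Both rose (adjusted p = 0.0145 and 0.0213). Both calls were lost without Control A, STZ B or STZ C, and that of the 90-nt form also without Control B, with adjusted p up to 0.0619 and 0.103.

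Mtf2, a Polycomb-like partner of the PRC2 histone methyltransferase, has exons of 362 and 202 nt that share an acceptor and start at mm9 chr5:108498181, with different downstream exons. The 202-nt exon rose from 0.37 and 0.29 in Control to 0.89, 0.91 and 0.89 in STZ (adjusted p = 0.0066), on 3 to 7 skipping reads in Control and 0 in STZ. The 362-nt exon rose from 0.20 and 0.16 to 0.58, 0.66 and 0.70 (adjusted p = 0.0162). Its call was lost without either Control library, STZ B or STZ C (adjusted p up to 0.0844), while that of the 202-nt exon was kept.

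**Figure D4:**
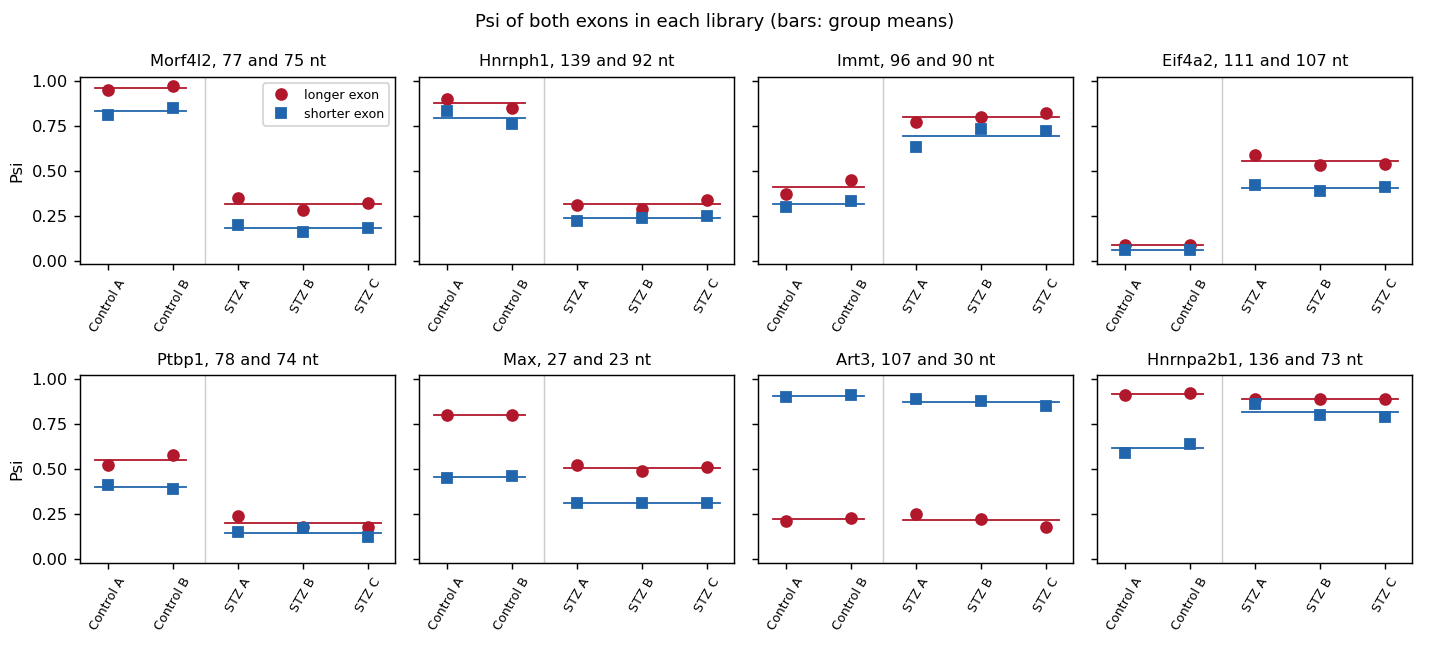
Psi (y axis, 0 to 1) of the longer exon (red circles) and the shorter exon (blue squares) in each of the 5 libraries (x axis) for 8 pairs, with bars at the group means. Both forms moved together in Morf4l2, Hnrnph1, Immt, Eif4a2, Ptbp1 and Max, and in Max the longer form fell by more than the shorter.

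Pairs with smaller changes of both exons were chosen after their values were seen. R3hdm2 (mm9 chr10:126918749-126918850, donors 39 nt apart) fell from 0.64 ± 0.0141 (SD, n = 2) to 0.347 ± 0.0115 (SD, n = 3) in the longer form and from 0.45 to 0.22 ± 0.0173 in the shorter. Rnf114, a ubiquitin ligase, fell from 0.955 ± 0.00707 to 0.747 ± 0.0252 in its 151-nt form and from 0.93 ± 0.0141 to 0.637 ± 0.0416 in its 129-nt form. Zyx, the focal adhesion protein zyxin, rose from 0.675 ± 0.00707 to 0.83 ± 0.01 with its 93-nt exon and from 0.55 ± 0.0141 to 0.73 with its 88-nt exon. Mcee, the methylmalonyl-CoA epimerase, fell from 0.83 in both Control libraries to 0.68, 0.69 and 0.68 in its 338-nt form, and from 0.75 in both to 0.59, 0.60 and 0.56 in its 176-nt form. The longer form of each gene, and the shorter form of Zyx, stayed called without each library. The other 3 shorter forms lost the call without Control A, and R3hdm2 and Mcee also without Control B and Rnf114 without STZ B (adjusted p up to 0.0566, 0.0675 and 0.0554).

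Gpx8, a glutathione peroxidase of the endoplasmic reticulum, fell in both forms of an exon with donors 103 nt apart (mm9 chr13:113835640-113835901). The 262-nt form was at 0.90 in both Control libraries and at 0.61, 0.62 and 0.58 in STZ (adjusted p = 0.00267). The 159-nt form was at 0.80 in both and at 0.39, 0.42 and 0.33 (adjusted p = 0.00945, and up to 0.0623 without Control A or Control B). Its 2 forms thus fell by 0.297 and 0.42.

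Among the other large rises, the 281-nt exon of Arfgap1, which switches off Arf GTPases, went from 0.52 and 0.60 in Control to 0.90, 0.83 and 0.84 in STZ. The 212-nt exon of Gbp3, an interferon-induced GTPase, went from 0.10 and 0.12 to 0.35, 0.50 and 0.36. In Chpf, which builds chondroitin chains, the 143-nt exon went from 0.13 and 0.07 to 0.31, 0.36 and 0.31. All 3 exons are untranslated, and in each the STZ libraries were above the Control libraries (adjusted p = 0.0376, 0.0326 and 0.0397). Each call held in 1 of the 5 leave-outs (adjusted p up to 0.157, 0.144 and 0.12). The Arfgap1 exon had 2 and 4 skipping reads in Control and 0 in STZ. Its 213-nt form was at 0.59 and 0.70 in Control and at 0.83, 0.96 and 0.93 in STZ, without a call in limma (adjusted p = 0.125). Partners of the other exons in this paragraph are not listed, so these calls do not single out 1 form.

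Among the other large falls, the 291-nt exon of Irf7, a transcription factor of the interferon response, fell from 0.85 and 0.75 to 0.42, 0.33 and 0.41 (adjusted p = 0.0288). The 168-nt coding exon of Sema6d, a semaphorin, fell from 0.54 in both Control libraries to 0.24, 0.13 and 0.16 (adjusted p = 0.0345). The 105-nt exon of Kbtbd3 fell from 0.75 and 0.68 to 0.37, 0.24 and 0.24, and the 126-nt exon of Dhx30, an RNA helicase, from 0.95 and 0.93 to 0.65, 0.71 and 0.54 (adjusted p = 0.0306 and 0.026). The Irf7 and Dhx30 calls were lost without any 1 library, and those of Sema6d and Kbtbd3 in 4 of the 5 leave-outs (adjusted p up to 0.0966, 0.118, 0.152 and 0.135). The Dhx30 exon had 0 to 3 skipping reads per library, and neither it nor the 168-nt Sema6d exon was called in a model of the reads. A 110-nt exon of Kbtbd3 and a 156-nt exon of Sema6d, also members, were not called in limma. Both passed the stricter count from the authors' tables, with differences of at least 0.29 and 0.25. Partners of the other exons in this paragraph are not listed, so these calls do not single out 1 form.

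In other pairs a large change was called in 1 form alone. Palld, the actin cross-linker palladin, rose from 0.72 and 0.73 to 0.96, 0.98 and 0.98 in its 675-nt form (adjusted p = 0.0173), on 1 and 3 skipping reads in Control, while its 80-nt form was at 0.88 and 0.84 and at 0.92, 0.70 and 0.77 (adjusted p = 0.79). Cyb561, a transmembrane cytochrome, fell from 0.55 and 0.53 to 0.21, 0.18 and 0.19 in its 279-nt form (adjusted p = 0.00714, kept without each library), while its 65-nt form was at 0.38 and 0.22 and at 0.17, 0.13 and 0.04 (adjusted p = 0.263). Ranbp3, a cofactor of nuclear export, fell from 0.95 and 0.98 to 0.60, 0.54 and 0.62 in a 93-nt form (adjusted p = 0.02). The Palld call was lost without either Control library, STZ B or STZ C, and the Ranbp3 call without any 1 STZ library (adjusted p up to 0.095 and 0.0752). The Palld exon was not called in a model of the reads (adjusted p = 0.786). That 1 form passed and the other did not is no test of a difference, which the next comparison gives.

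Whether the 2 forms changed by different amounts was tested within each library, as logit Psi of the longer minus that of the shorter exon. Of 367 pairs, 8 passed (2.18%), and 55 (15.0%) had an unadjusted p under 0.05. The groups did not overlap in 32.7% of pairs. In 3 of the 8, Snrpd3, Ap1b1 and Pdrg1, both exons had a Control mean Psi of at least 0.98 with between 0 and 2 skipping reads per library, and the differences were 0.015, 0.0317 and 0.00833 in Psi. The count without each library ran from 0 to 10, and no pair of the 8 stayed called each time. No pair passed when Psi was clipped at 0.001 or at 0.05 in place of 0.01.

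Max was the sole pair of the 8 with a difference of at least 0.10 in Psi. Max is the partner through which Myc binds DNA, and its small coding exon (mm9 chr12:78062250-78062276) is 27 or 23 nt long. The 27-nt form was at 0.80 in both Control libraries and at 0.52, 0.49 and 0.51 in STZ. The 23-nt form was at 0.45 and 0.46 in Control and at 0.31 in all 3 STZ libraries. Both forms fell, by 0.293 (adjusted p = 0.00395) and by 0.145 (adjusted p = 0.0134), and the longer fell by 0.148 more (logit difference -0.74 ± 0.0748, SE; adjusted p = 0.0407). The ratio of inclusion-only reads, longer to shorter, was 3.92 and 3.60 in Control and 2.35, 2.08 and 2.38 in STZ. It was lower in every STZ library (0.603-fold, adjusted p = 0.0267), which made Max the one pair called in both readouts. The fall of the 27-nt form held without each library. That of the 23-nt form was lost without Control A, Control B or STZ B (adjusted p up to 0.0534), and both within-pair calls were lost without any 1 library (adjusted p up to 0.155 for the logit difference and 0.185 for the read ratio).

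The other 4 pairs changed little in Psi or rested on few reads. Serinc3, a multi-pass membrane protein, has a coding exon of 162 or 23 nt (mm9 chr2:163464902-163465063). Its 23-nt form fell from 0.99 and 1.00 in Control to 0.90, 0.90 and 0.88 in STZ (adjusted p = 0.00267). Its 162-nt form was at 0.97 and 0.98 in Control and at 0.95, 0.94 and 0.93 in STZ. That form did not pass in limma (adjusted p = 0.0559) but was called in a model of the reads. Skipping reads of the longer form numbered 2 and 0 in Control and 79, 106 and 115 in STZ. The logit difference was 1.54 ± 0.153 (SE; adjusted p = 0.0407), while the ratio of inclusion-only reads was between 14.7 and 16.3 in all 5 libraries.

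Art3, a member of the ADP-ribosyltransferase family, showed the widest gap in level of the 8. Its 107-nt form was at 0.21 and 0.23 in Control and at 0.25, 0.22 and 0.18 in STZ, and its 30-nt form, which shares the acceptor (mm9 chr5:92841191-92841220), at 0.90 and 0.91 and at 0.89, 0.88 and 0.85. Neither form was called on its own, and the logit difference was 0.289 ± 0.0283 (SE; adjusted p = 0.0407). Gucd1 had a logit difference of 1.53 ± 0.156 (SE; adjusted p = 0.0407) with at most 7 skipping reads per library. In Morf4l2 the logit difference of the 77-nt and 75-nt forms was -0.87 ± 0.0927 (SE; adjusted p = 0.0417), although in Psi they fell by almost the same amount. The Art3 call was lost without any 1 library (adjusted p up to 0.172). Those of Gucd1, Serinc3 and Morf4l2 each held in 1 of the 5 leave-outs (up to 0.206, 0.122 and 0.143).

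The ratio of inclusion-only reads, longer over shorter exon, does not go through the Psi estimate. It was tested in 367 pairs with the same skipping junction, and 16 passed (4.36%), with 58 (15.8%) at an unadjusted p under 0.05 and 35.7% of pairs without overlap. In 7 of the 16 the longer form gained in STZ and in 9 it lost. Donors differed in 10 and acceptors in 6, and 12 of the 16 were over 60 nt apart. In 8 of them neither exon was called in Psi, counting Whrn, whose 33-nt exon had too few informative reads to be tested. These 16 genes were named after their values were seen. No pair stayed called without each library: none of the 16 passed without Control A, Control B or STZ B, 8 did without STZ A and 2 without STZ C.

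**Figure D5:**
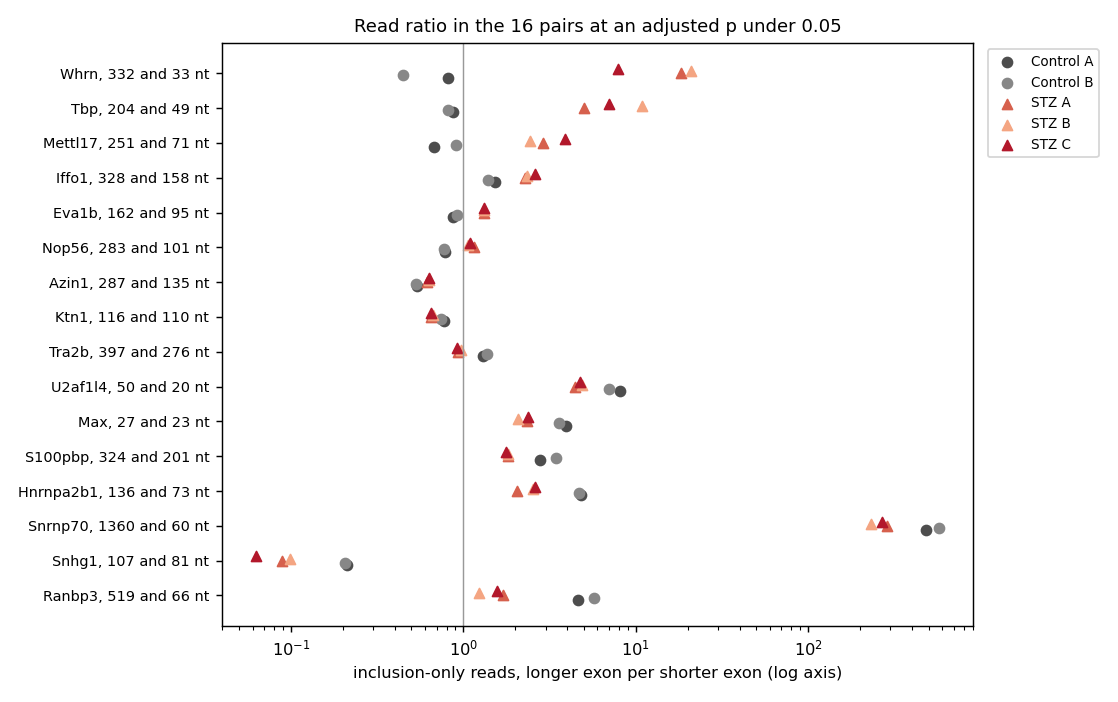
Ratio of inclusion-only reads, longer over shorter exon (x axis, log scale), in each library (Control circles, STZ triangles) for the 16 pairs that passed (y axis). In every row the 2 Control libraries lie on one side of the 3 STZ libraries, from 231 to 576 in Snrnp70 down to 0.0628 to 0.21 in Snhg1.

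The longer form gained most in Whrn and Tbp. Whrn, the scaffold protein whirlin, has exons of 332 and 33 nt that share a donor (mm9 chr4:63090120-63090451). The 332-nt form had 31 and 24 inclusion-only reads (Control) and 27, 31 and 27 (STZ), while the 33-nt form had 38 and 54 in Control and 1, 1 and 3 in STZ. The log2 ratio rose by 4.58 ± 0.555 (SE; adjusted p = 0.0247) on these few reads. Psi of the 33-nt form was not tested in limma. That form passed the stricter count from the authors' tables, with differences of at least 0.51 and Bayes factors of at least 792. Tbp, the TATA-binding protein, has untranslated exons of 204 and 49 nt (mm9 chr17:15638118-15638321). The 204-nt form had 26 and 25 reads in Control and 82, 70 and 73 in STZ, and the 49-nt form 30 and 31 and then 16, 6 and 10, a rise of 3.11 ± 0.358 (SE; adjusted p = 0.0247). Both calls held in 1 of the 5 leave-outs (adjusted p up to 0.152 and 0.163).

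Nop56, a core protein of box C/D nucleolar particles, had 252 and 336 reads for its 283-nt form and 323 and 437 for its 101-nt form in Control. In STZ the longer form had 872, 689 and 674 and the shorter 752, 644 and 615. The ratio thus went from 0.781 and 0.769 to 1.16, 1.07 and 1.10, a 1.43-fold rise (adjusted p = 0.0233). Snhg1, a host gene of small nucleolar RNAs, moved the other way, from 0.21 and 0.206 to 0.0883, 0.099 and 0.0628 (0.394-fold, adjusted p = 0.0394). Its 81-nt form had 59 and 70 reads (Control) and 549, 651 and 326 (STZ). For Ranbp3 the ratio of the 519-nt to the 66-nt form was 4.62 and 5.69 in Control and 1.70, 1.23 and 1.58 in STZ (0.29-fold, adjusted p = 0.0247). Each of these calls held in 1 of the 5 leave-outs, with adjusted p up to 0.145 for Nop56 and Ranbp3 and 0.292 for Snhg1. The remaining pairs were Eva1b, Iffo1, Mettl17 and a second pair of Azin1 (287 and 135 nt), in which the longer form gained, and S100pbp and Ktn1 (116 and 110 nt), in which it lost.

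Genes that act in splice site choice were looked at as a list. It holds 77 genes, of which 48 had 97 tested events; 17 rose and 21 fell (39.2%, against 15.0% of all events). The list was drawn up with earlier results of these data known, and its count was 11 to 27 without 1 library, lowest without Control A. Of these events, 18 in 9 genes were members, and 4 rose and 8 fell. None of the 9 pairs passed for the logit difference, and 4 passed for the read ratio: Tra2b, Hnrnpa2b1, Snrnp70 and U2af1l4. The median change was -0.0175 over the 18 and -0.01 over all events.

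Tra2b, an SR-like activator of splicing, has an exon of 397 or 276 nt (mm9 chr16:22258938-22259334) found in a transcript annotated as a target of nonsense-mediated decay. The 397-nt form was at 0.06 and 0.05 in Control and at 0.48, 0.43 and 0.32 in STZ, and the 276-nt form at 0.07 and 0.05 and at 0.61, 0.55 and 0.43. Both rose (adjusted p = 0.0162 and 0.0159), and the read ratio fell from 1.30 and 1.36 to 0.931, 0.97 and 0.921 (adjusted p = 0.0233). Without Control A, Control B or STZ B the Psi calls were lost (adjusted p up to 0.0897 and 0.084), and the ratio call was lost in all leave-outs but that of STZ A (up to 0.145).

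Hnrnpa2b1, an RNA-binding repressor of splicing, has an untranslated exon of 136 or 73 nt (mm9 chr6:51411919-51412054), and its 2 forms were closer in Psi in STZ than in Control. The 136-nt form was at 0.91 and 0.92 in Control and at 0.89 in all 3 STZ libraries (adjusted p = 0.0349, and 0.204 in a model of the reads). The 73-nt form was at 0.59 and 0.64 in Control and at 0.86, 0.80 and 0.79 in STZ, without passing the test (adjusted p = 0.0502). The read ratio fell from 4.81 and 4.70 to 2.04, 2.54 and 2.60, 0.5-fold (adjusted p = 0.0247, and up to 0.185 over the leave-outs, where it was called without STZ A alone). The logit difference was -1.33 ± 0.18 (SE; adjusted p = 0.0808).

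Ptbp1, the polypyrimidine tract binding repressor, has a coding exon of 78 or 74 nt (mm9 chr10:79322862-79322939). The 78-nt form was at 0.52 and 0.58 in Control and at 0.24, 0.18 and 0.18 in STZ, and the 74-nt form at 0.41 and 0.39 and at 0.15, 0.17 and 0.12. Both fell (adjusted p = 0.018 and 0.0191). The first call was lost without either Control library, STZ B or STZ C and the second without either Control library or STZ A (adjusted p up to 0.0897 and 0.095). Snrnp70, a protein of the U1 particle that reads the donor, fell in its 1360-nt form from 0.31 and 0.35 to 0.17, 0.20 and 0.21 (adjusted p = 0.0346), and its read ratio fell 0.496-fold (adjusted p = 0.0247), with 8 to 14 reads per library for the 60-nt form. U2af1l4 is related to the U2AF subunit that reads the acceptor AG. Its 20-nt form rose from 0.81 and 0.80 to 0.93, 0.90 and 0.92 (adjusted p = 0.0338). Its 50-nt form was at 0.96 and 0.95 in Control and at 0.97, 0.97 and 0.99 in STZ. That form was called in a model of the reads (adjusted p = 0.0101) but not in limma (adjusted p = 0.347). The logit difference between the forms was not called (adjusted p = 0.908). Hnrnpc, which binds runs of U, rose in its 1223-nt exon from 0.07 and 0.05 to 0.26, 0.21 and 0.20 (adjusted p = 0.0209). Its 229-nt exon rose by 1.91 on the logit scale, without a call in limma (adjusted p = 0.107). A model of the reads called that exon (adjusted p = 0.0239). The Psi calls of Snrnp70 and Hnrnpc were lost without any 1 library, and that of U2af1l4 without 4 of the 5, all but STZ B (adjusted p up to 0.144, 0.0829 and 0.148). Neither form of Mbnl1, a regulator of muscle splicing, was called (adjusted p = 0.393 and 0.485).

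Slu7, a factor of the second splicing step that helps choose the acceptor, is one of 3 pairs with donors 3 nt apart. Its untranslated exon (mm9 chr11:43249856-43249937) is 82 or 79 nt long. The 82-nt form was at 0.25 and 0.32 in Control and at 0.11, 0.06 and 0.08 in STZ, and the 79-nt form at 0.35 and 0.43 and at 0.17, 0.12 and 0.10 (adjusted p = 0.041 and 0.0386). The call of the 82-nt form was lost without any 1 library and that of the 79-nt form in all but the leave-out of STZ A (up to 0.174 and 0.167). Pabpc4, a cytoplasmic poly(A)-binding protein, fell from 0.84 and 0.89 to 0.57, 0.57 and 0.55 in its 90-nt form and from 0.94 in both to 0.85, 0.79 and 0.81 in its 87-nt form (adjusted p = 0.0155 and 0.021), with 3 to 5 skipping reads per library and no call in a model of the reads. Its calls were lost without STZ B or STZ C, that of the 90-nt form also without STZ A and that of the 87-nt form also without either Control library (up to 0.0633 and 0.111). Cuedc2, the third pair, had Psi of at most 0.17 in all libraries and no call.

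Acceptor pairs 3 nt apart were the most frequent kind, and 37 were tested. At least 1 exon changed in 5 of them and both in 3, 1 up and 2 down. The 4 pairs with the most reads had no called change in limma with the main settings. In the 96-nt exon of Psap (mm9 chr10:59762212-59762307) both forms had a Psi of 0.99 or 1.00 in every library, and the read ratio was 1.53 and 1.50 in Control and 1.63, 1.53 and 1.55 in STZ (adjusted p = 0.531). In Dnajc4, a J-domain protein, the 165-nt form was at 0.91 and 0.96 and at 0.90, 0.97 and 0.97. Ywhaz, a 14-3-3 protein, was at 0.98 and 0.99 in Control and at 0.95, 0.94 and 0.92 in STZ in both forms (adjusted p = 0.0523). Each Ywhaz form was called in 4 of 14 alternatives, a model of the reads among them, and in no leave-out. Nars, the asparaginyl-tRNA synthetase, was between 0.96 and 0.99 in both forms.

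Uap1, Med16 and Hnrnpr were the 3 in which both exons changed, and they are named after their values were seen. Uap1, which makes UDP-N-acetylglucosamine, fell from 0.85 and 0.78 to 0.62, 0.61 and 0.53 in its 51-nt form and from 0.76 and 0.69 to 0.47, 0.47 and 0.42 in its 48-nt form (mm9 chr1:172078127-172078177; adjusted p = 0.0485 and 0.0256). The read ratio was 1.73 and 1.54 in Control and 1.76, 1.77 and 1.53 in STZ. Med16, a Mediator subunit, fell from 0.96 in both Control libraries to 0.92, 0.91 and 0.89 in its 166-nt form and from 0.97 and 0.98 to 0.89, 0.87 and 0.86 in its 163-nt form, with 0 to 3 skipping reads per library. Hnrnpr rose from 0.45 and 0.48 to 0.61, 0.70 and 0.68 in its 169-nt form and from 0.47 and 0.50 to 0.65, 0.72 and 0.71 in its 166-nt form. Both Uap1 calls were lost without any 1 library, the Hnrnpr calls in all but the leave-out of STZ A, and the Med16 calls without Control B or STZ B among others (adjusted p up to 0.146, 0.19 and 0.135). Neither Med16 exon was called in a model of the reads (adjusted p = 0.156 and 0.16).

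The other lists of gene roles held few members, and their shares stand beside 15.0% of all events tested. Of 18 tested events of chromatin and transcription genes, 2 rose (both Mtf2) and 5 fell (3 of Morf4l2 and 2 of Max), and 24.4% of all 86 events of that list changed. These counts leave out Tbp, with a called rise, and Irf7, Med16 and Polr2d, with called falls. Of 15 events of cytoskeleton, adhesion and sarcomere genes, 1 rose (Palld) and 2 fell (the 116-nt and 112-nt exons of Ktn1, a kinesin-binding protein), against 21.7% of 120. The list does not hold Zyx, whose 2 exons rose. Mitochondria and metabolism had 4 events, with both of Immt up and both of Mcee down, against 21.6% of the 37 events of that list. Ubiquitin genes had 6, with both of Rnf114 down, against 24.0% of 25. Membrane trafficking genes had 2, with the 80-nt exon of Ap1b1 down by 0.0417 (not called in a model of the reads), against 21.8% of 55. None of 4 events of kinase and GTPase signalling was called, against 17.0% of 53.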

How the data were processed

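RNA from left ventricle was sequenced in 2 Control and 3 STZ samples. The tools were CASAVA 1.8.2 and TopHat, with genome build mm9, per the submitters' processing notes. The 6 tables are MISO comparisons of 1 library with another, per the file headers. For the version of MISO and its event annotation, the sources used here give nothing. Psi was deposited by the authors as a fraction, a posterior mean with 2 decimals. The read classes were deposited by the authors as counts inside a text field (unit other), and the Bayes factor as a ratio. Library values did not differ between tables, and 36 other per-library columns were not used.

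Exons (6331 in all tables) were paired by coordinates (mm9, from 1). Genes were named by exon and intron lengths in GENCODE M21 (610 members), the file's gene (53), the skipping junction (49) or the paired exon (85), and 6 stayed unnamed. Sequences come from the matched M21 transcripts (GRCm38).

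An event was tested with at least 10 informative reads (inclusion-only plus exclusion-only) in every library. Psi was clipped to 0.01 to 0.99, put on the logit scale and compared in limma 3.58.1 (R 4.3.3), two-sided, with a prior variance that follows the reads and Benjamini-Hochberg adjustment over all 4769 events, at 0.05. The within-pair logit difference and the log2 ratio of inclusion-only reads (pseudocount 0.5, at least 10 reads in either exon) were tested the same way over all 367 pairs each. The scripts were tested on simulated data. Marker levels (RPM) are the reads of a gene's events over all event reads of the library. The members, lists and tests were chosen with earlier results of these data known. Named exons were the 10 largest rises and falls among called members, pairs called for the logit difference, the 6 largest joint changes, the 4 deepest 3-nt pairs of each kind, and members of splice site genes. Alternatives were another clip, read minimum, scale, prior or weighting, a quasi-binomial model of the reads and other choices of pairs. Further ones were the stricter count on the authors' Psi differences and Bayes factors, and leaving out each library. The last assumes that a lone Control library varies like the others.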

Additional observations from a re-analysis of the deposited data

How the results depend on the processing

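No paired analysis was possible because the library codes carry no replicate number. Leaving out 1 library in turn gave 47 to 72 changed members, 0 to 10 pairs for the logit difference, 0 to 12 for the read ratio and 11 to 27 events of splice site genes. The logit difference was called in 0 pairs with Psi clipped at 0.001 (42 at an unadjusted p under 0.05 in limma) and in 0 at 0.05 (55 at an unadjusted p under 0.05), in 13 with Psi not transformed, in 4 with one prior variance, and in 5 of 220 pairs over 12 nt apart. With at least 10 exclusion-only reads over the 5 libraries, an alternative chosen after seeing the data, it was called in 4 of 208 pairs, and 110 of 395 members changed. The stricter count on the authors' Psi differences and Bayes factors gave 36 members and 19 events of splice site genes. The quasi-binomial model gave 135 members. For the minimum of exclusion-only reads, the quasi-binomial model and the leave-outs, the share over all events is not given here. Their member counts therefore do not compare the members with other events. The Morf4l2 pair of 77 and 75 nt turned from a logit difference of -0.87 to a difference of 0.0067 with Psi not transformed (adjusted p = 0.845). Among the exons and pairs named or called in both forms, 1325 member values under the alternatives kept their side of the threshold, 262 lost a call and 30 gained one; for the logit difference the numbers were 435, 57 and 5, and for the read ratio 156, 70 and 1. The calls of Snrpd3 (54 nt), Ap1b1 (80 nt) and Pdrg1 (72 nt) were lost at a clip of 0.05, where their logit difference from Control is 0. The share of pairs with the same sign was between 81.6% and 86.9% under every alternative run for it. Depth limits the pairs with few skipping reads: 24 of the 106 changed members had fewer than 10 in all, and 113 members had too few reads to be tested.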
